A study of Oryza sativa with 6 samples.

Results

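ADP-glucose pyrophosphorylases and starch synthases carry out the first committed step and the chain-building step of starch synthesis, and 7 rice genes of these enzymes were followed in leaves with raised or lost MIR171f. They were taken by gene identifier from a table of 6535 genes, and 9 of its 7194 transcripts belong to them. Of the 7 genes, 3 are described in the table as ADP-glucose pyrophosphorylases and 4 as starch synthases, and all 9 transcripts passed the filter on low counts.

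Messenger RNA was sequenced from leaves of greenhouse rice at 4 weeks of age, in 2 libraries of each of 3 genotypes: nontransgenic plants (WT), transgenic plants with whole-body overexpression of Osa-MIR171f (OX) and CRISPR-Cas9 knockout mutants of Osa-MIR171f (KO). All 6 libraries share germination for 3 days at 28 °C. The series title names miR171f, SCARECROW-LIKE6, drought tolerance and genes of flavonoid synthesis. For OX, line 3 gave 1 library and line 5 the other, so that OX replicates also differ in line. Both KO libraries carry line number 2, and neither the promoter of the transgene nor the time of day of harvest is given in the labels. Nothing in the labels says that WT or KO libraries were separate plants. The p-values therefore reflect nothing beyond the spread among these 6 libraries, part of which may be technical.

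ADP-glucose pyrophosphorylase joins glucose-1-phosphate and ATP to ADP-glucose, the glucose donor for starch. The plant enzyme is built from large and small subunits that separate genes encode. Starch synthases then add the glucose to growing chains: the granule-bound form makes amylose, and the soluble forms, with branching and debranching enzymes, make amylopectin. In leaves this starch is laid down in chloroplasts by day and broken down at night.

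The authors' table is a selection: a transcript is in it where 1 or more of their 3 comparisons gave a change of 2-fold or more and an unadjusted p under 0.05. All counts of transcripts given here are counts within that selection. Library totals recovered from the deposited values ran from 28374212 to 33404887 reads, and listed transcripts held 7376228 to 9739821 of the counts. Levels are CPM, counts scaled to the authors' effective library totals, as mean ± SD with n = 2, and log2 fold changes carry their standard error (SE). A transcript is called where edgeR's quasi-likelihood test gave an adjusted p below 0.05. Among all 7034 tested transcripts, 25.0% were called higher and 19.0% lower in OX against WT, 25.0% higher and 11.0% lower in KO against WT, and 13.3% higher and 25.0% lower in OX against KO. The median log2 fold change over those transcripts was 0.28, 0.43 and -0.41 in the same order. MIR171f itself was not analysed here, and the genotype labels could not be checked on it.

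Of the 7 genes, 5 were called higher in OX than in WT and none was called lower, beside 25.0% and 19.0% of all tested transcripts. Os08g0345800 and Os01g0720600, each listed by transcript 03 alone, had lower means in OX that were not called. In KO against WT, the called members split: 3 were higher and 2 were lower, beside 25.0% and 11.0% of all tested transcripts. Among the members, Os05g0580000, a pyrophosphorylase gene, had the highest ratio of its highest to its lowest library, 155.5, from 2.597 CPM in a WT library to 404 CPM in an OX library. The soluble starch synthase I gene Os06g0160700 and the granule-bound starch synthase Ib gene Os07g0412100 were highest in OX, intermediate in WT and lowest in KO. The OX and KO comparisons share the WT libraries, and their values are therefore given side by side without a measure of their agreement.

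**Figure D1:**
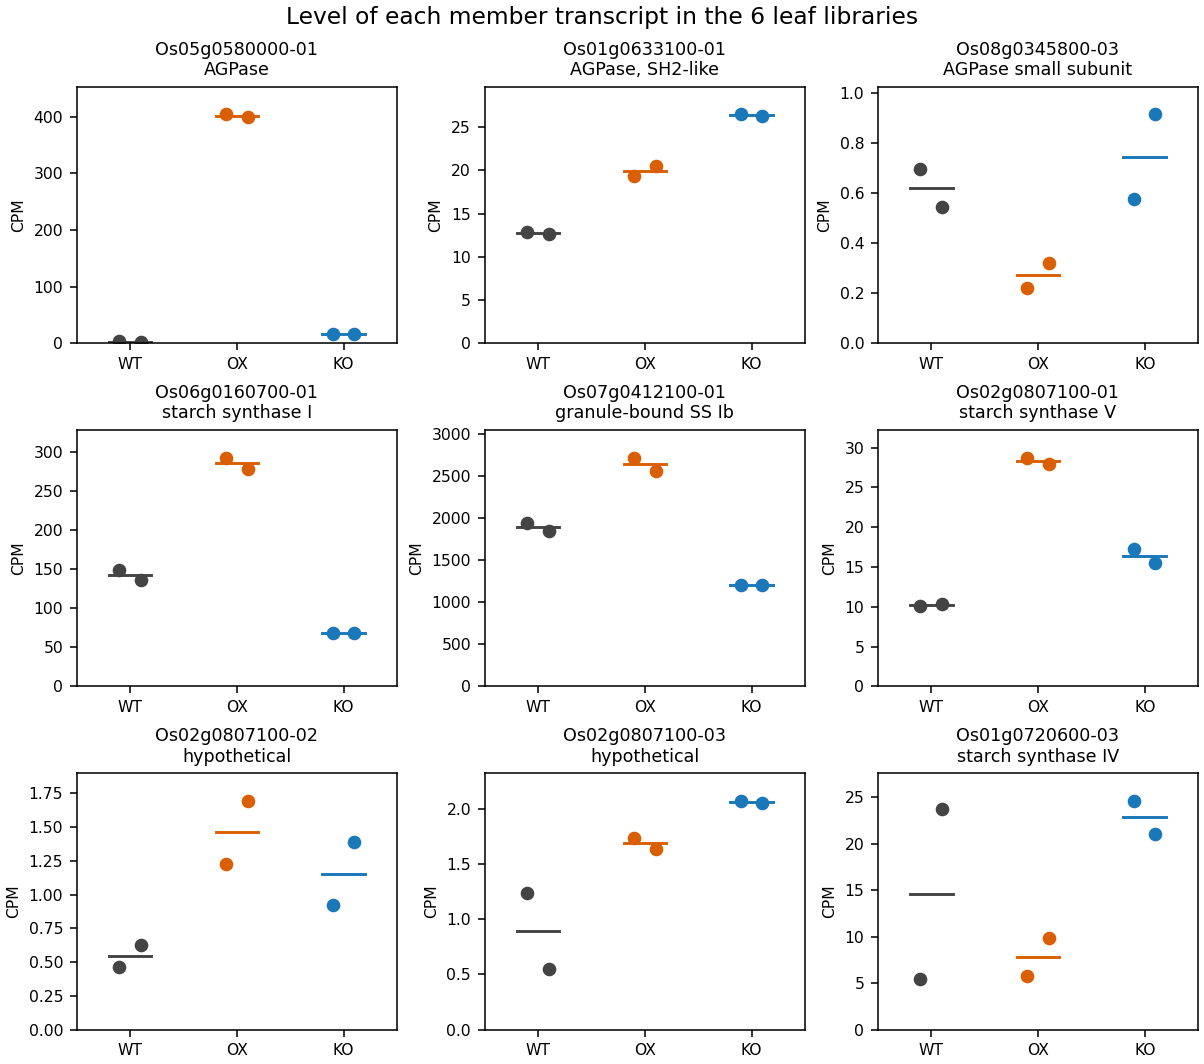
Level of each of the 9 member transcripts, in CPM on linear axes that start at 0, with 1 point per library and a line at the group mean of 2 libraries (WT grey, OX orange, KO blue). Os05g0580000 stood at 404 and 399.5 CPM in OX and at most at 17.3 in the other 4 libraries, and the WT libraries of starch synthase IV lay 4.37-fold apart.

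Among the pyrophosphorylases, Os05g0580000 (chromosome 5, 28871794 to 28877277, IRGSP-1.0), described as similar to ADP-glucose pyrophosphorylase, had 3.56 and 2.597 CPM in the WT libraries. The OX libraries reached 404 and 399.5 CPM, and those of KO held 15.8 and 17.3. The 3 genotypes did not overlap, and both lines of OX were alike. It rose 130.0-fold from WT to OX (7.02 on the log2 scale, SE 0.17, edgeR adjusted p = 6.06e-05) and 5.36-fold in KO against WT (2.42, SE 0.15, adjusted p = 0.000638). OX was 24.2-fold above KO (4.60, SE 0.15, adjusted p = 0.000126). The WT level rests on 92 and 62 reads, against 12820 and 13670 for OX and 413 and 473 for KO.

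The other pyrophosphorylase with a called change was Os01g0633100 (chromosome 1, 25353805 to 25361883), described as similar to subunit SH2, the product of the maize gene Shrunken2, which encodes the large subunit of the endosperm enzyme. It had 12.9 and 12.7 CPM in the WT libraries, 19.4 and 20.5 in those of OX and 26.5 and 26.3 in those of KO. WT was lowest and KO highest, with no overlap. It rose 1.56-fold in OX (0.64, SE 0.09, edgeR adjusted p = 0.00946) and 2.06-fold in KO (1.04, SE 0.09, adjusted p = 0.00178), while OX against KO was not called (-0.40, SE 0.09, adjusted p = 0.0546). The OX call was lost without OX 2, the library of line 5 (adjusted p = 0.0634). The OX against KO difference was called by DESeq2 (adjusted p = 0.0100) and when p-values were adjusted over the listed transcripts alone (0.0140).

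Transcript 03 of Os08g0345800 (chromosome 8, 15666336 to 15667915), described as an isoform of the small subunit, is 581 bases long and had few reads: WT had 18 and 13, OX had 7 and 11, and KO had 15 and 25. Its levels were 0.697 and 0.545 CPM in the WT libraries, 0.221 and 0.322 in those of OX and 0.575 and 0.914 in those of KO. Both OX libraries were lowest, but no comparison was called by edgeR: the log2 fold change was -1.18 (SE 0.45, adjusted p = 0.261) in OX against WT, 0.26 (SE 0.42, adjusted p = 1) in KO against WT and -1.44 (SE 0.45, adjusted p = 0.154) in OX against KO. The OX against KO difference was called when p-values were adjusted over the listed transcripts alone (0.0394). In the authors' deposited table it was the comparison that selected this transcript, with a signed fold of 2.72 for KO over OX and an unadjusted p of 0.0226. Other transcripts of this gene were not analysed here, so the gene's full level is not known from these values.

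The starch synthases with the highest levels moved in opposite directions in OX and KO. Os06g0160700 (chromosome 6, 3079296 to 3086808), a soluble starch synthase I, which in cereals mainly extends short chains of amylopectin, had 148 and 136.0 CPM in the WT libraries, 292 and 278 in those of OX and 68.2 and 68.0 in those of KO. No libraries of different genotypes overlapped. It rose 2.005-fold in OX against WT (1.00, SE 0.06, edgeR adjusted p = 0.000452), fell 2.09-fold in KO against WT (-1.06, SE 0.06, adjusted p = 0.000427), and OX stood 4.19-fold above KO (2.07, SE 0.06, adjusted p = 8.71e-05).

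Os07g0412100 (chromosome 7, 12916883 to 12924202) is described as granule-bound starch synthase Ib, in cereals the granule-bound form of leaves and other tissues that do not store starch. It had 1935 and 1841 CPM in the WT libraries, 2715 and 2555 in those of OX and 1206 and 1199 in those of KO, again without overlap. It rose 1.40-fold in OX (0.48, SE 0.05, edgeR adjusted p = 0.00226), fell 1.57-fold in KO (-0.65, SE 0.05, adjusted p = 0.000865), and OX stood 2.19-fold above KO (1.13, SE 0.05, adjusted p = 0.000170). For both genes the direction and the call held in each comparison under every alternative scaling and test and without any 1 library. The log2 fold change of starch synthase I in KO against WT ranged from -1.56 to -0.87 over these alternatives, and that of granule-bound starch synthase Ib from -1.14 to -0.46. In OX against WT, starch synthase I ranged from 0.83 with DESeq2 size factors to 1.37 with plain library totals. Granule-bound starch synthase Ib ranged from 0.31 to 0.85 with the same 2 scalings.

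Os02g0807100 (chromosome 2) has 3 listed transcripts. Transcript 01 (34475749 to 34483848), described as starch synthase V, had 10.1 and 10.4 CPM in the WT libraries, 28.8 and 27.9 in those of OX and 17.3 and 15.5 in those of KO. OX was highest and WT lowest, without overlap. It rose 2.77-fold in OX against WT (1.47, SE 0.10, edgeR adjusted p = 0.000741) and stood 1.73-fold higher in OX than in KO (0.79, SE 0.10, adjusted p = 0.00784), a call lost without OX 1 (adjusted p = 0.0616), OX 2 (0.0524) or KO 2 (0.0633). In KO against WT the log2 fold change was 0.68 (SE 0.10, adjusted p = 0.0142). That KO call depended on the scaling, with 0.19 under DESeq2 size factors (adjusted p = 0.678) and 0.28 under TMM on the listed transcripts (adjusted p = 0.272), and was lost without WT 1 (adjusted p = 0.0670), WT 2 (0.0558) or KO 1 (0.0948) and in a fit of the 4 compared libraries (0.0544).

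Transcripts 02 (34482713 to 34484603) and 03 (34483996 to 34486095) of Os02g0807100 are described as hypothetical. The span of transcript 02 shares 1136 bases with that of transcript 01 and 608 bases with that of transcript 03, whose span begins 147 bases past transcript 01, and reads of overlapping transcripts may be shared. Transcript 02 had 0.465 and 0.628 CPM in the WT libraries, 1.23 and 1.70 in those of OX and 0.920 and 1.39 in those of KO. Transcript 03 had 1.24 and 0.545 CPM in the WT libraries, 1.73 and 1.64 in those of OX and 2.07 and 2.05 in those of KO. For both transcripts WT was below OX and KO, and no comparison was called: in OX against WT the log2 fold changes were 1.42 (SE 0.39, edgeR adjusted p = 0.0993) and 0.91 (SE 0.42, adjusted p = 0.415), and in KO against WT 1.08 (SE 0.40, adjusted p = 0.269) and 1.20 (SE 0.42, adjusted p = 0.233). Transcript 02 in OX was called with plain library totals (1.78, adjusted p = 0.0413) and when p-values were adjusted over the listed transcripts alone (1.42, adjusted p = 0.0255). Summed over its 3 transcripts, the gene gave log2 fold changes of 1.43 in OX against WT (adjusted p = 0.000153) and 0.75 in KO against WT (adjusted p = 0.00308).

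Transcript 03 of Os01g0720600 (chromosome 1, 30032455 to 30041227), described as starch synthase IV, a class that in Arabidopsis helps to start granules, had 5.42 and 23.7 CPM in the WT libraries, 5.80 and 9.82 in those of OX and 24.6 and 21.1 in those of KO. The WT libraries differed 4.37-fold from each other, 1 lying below every other library and 1 within the KO range. OX lay below KO, and WT overlapped both. No comparison was called: the log2 fold change was -0.90 (SE 0.71, edgeR adjusted p = 1) in OX against WT, 0.65 (SE 0.70, adjusted p = 1) in KO against WT and -1.55 (SE 0.72, adjusted p = 0.478) in OX against KO. The direction against WT turned with the library left out. Without WT 2 it was 0.53 in OX (adjusted p = 1), and without WT 1 it was -0.05 in KO (adjusted p = 1). In the authors' deposited table this transcript was selected by OX and KO alone, with a signed fold of 2.92 for KO over OX and an adjusted p of 1.44e-06. Other transcripts of Os01g0720600 were not analysed here, so the gene's full level is not known from these values.

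**Figure D2:**
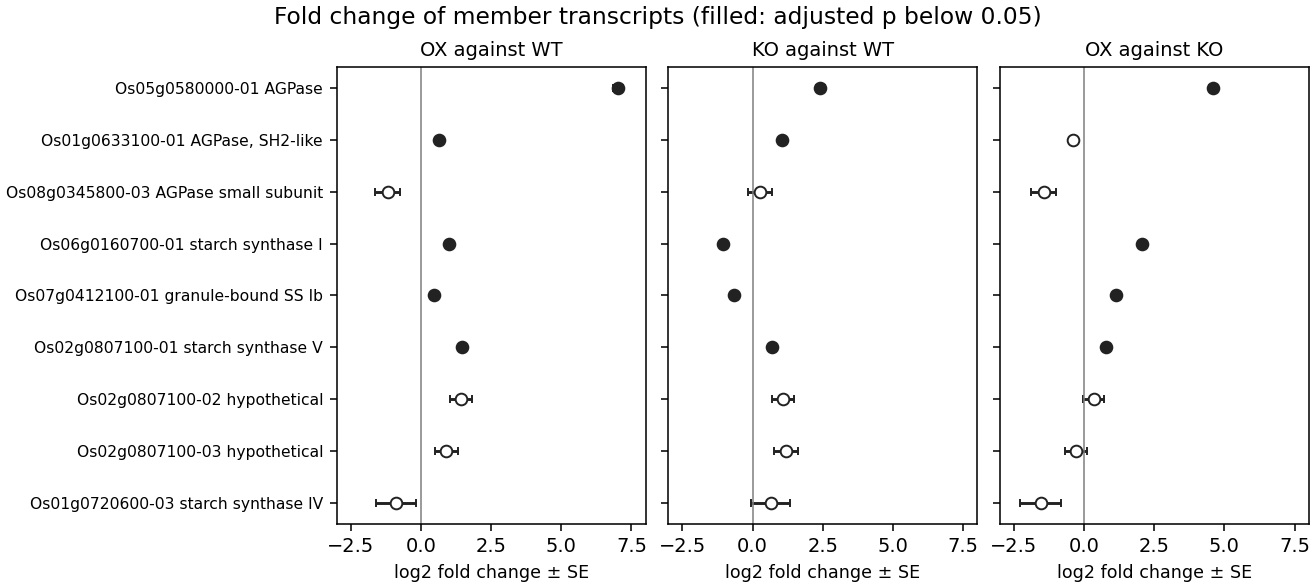
Log2 fold change of the 9 member transcripts in the 3 comparisons, with bars of 1 SE from edgeR's quasi-likelihood fit (bars shorter than the point are hidden). Filled points have an adjusted p below 0.05. Os05g0580000 reached 7.02 in OX against WT, and starch synthase I and granule-bound starch synthase Ib lay right of 0 in OX against WT and left of 0 in KO against WT.

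In counts, 5 of the 9 member transcripts rose and 0 fell in OX against WT, 3 rose and 2 fell in KO against WT, and 4 were higher and 0 lower in OX than in KO. Their median log2 fold changes were 0.91, 0.68 and 0.34 in that order, beside 0.28, 0.43 and -0.41 over all tested transcripts. The background shares given above are shares of transcripts chosen by the authors for change, the members included, so these counts alone set the members apart from nothing. The 0 in OX against WT was also 0 with DESeq2, and 1 of the 4 uncalled members (Os08g0345800) had an unadjusted edgeR p below 0.05 with a lower value (0.0450). The 0 in OX against KO became 1 with DESeq2, and 2 lower members had an unadjusted edgeR p below 0.05, Os01g0633100 (0.00550) and Os08g0345800 (0.0209). Of all 7034 tested transcripts, 4804 had an unadjusted edgeR p below 0.05 in OX against WT, and 4431 in OX against KO, in either direction. Such p-values are thus common in this selection. In KO against WT the split was 2 higher and 2 lower with DESeq2 size factors or TMM. In the authors' deposited table, 4 member transcripts passed the selection in OX over WT, 4 in KO over WT and 5 in KO over OX. Every listed transcript passed in 1 or more comparisons, because the table was made that way. The share of all listed transcripts passing in each comparison was not counted, so these numbers do not set the members apart either. The calls for Os01g0633100 in OX, for transcript 01 of Os02g0807100 in KO and in OX against KO, and for Os07g0412100 in OX and KO fell in comparisons by which those transcripts were not selected. Those comparisons share libraries with the ones that selected the transcripts, so these calls are not independent of the selection.

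Levels of different members were compared on the authors' FPKM, which is scaled to transcript length and to plain library totals. Values named for starch synthase IV and Os08g0345800 are those of transcript 03 alone. In WT, granule-bound starch synthase Ib was highest at 676 ± 31.2 FPKM, followed by starch synthase I at 43.5 ± 3.15. Os01g0633100 (4.30 ± 0.0938), starch synthase IV (3.36 ± 2.97) and starch synthase V transcript 01 (2.66 ± 0.0305) came next, and the spread of starch synthase IV covered both neighbours. Os05g0580000 (1.06 ± 0.252) and Os08g0345800 (0.830 ± 0.179) overlapped, as did transcripts 03 (0.336 ± 0.192) and 02 (0.253 ± 0.0571) of Os02g0807100.

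In OX, Os05g0580000 moved from rank 6 to rank 2, at 180 ± 4.18 FPKM, below granule-bound starch synthase Ib (1220 ± 71.5) and above starch synthase I (113 ± 5.68). Starch synthase V transcript 01 (9.53 ± 0.342) and Os01g0633100 (8.66 ± 0.217) followed, then starch synthase IV (2.33 ± 0.818). In KO, granule-bound starch synthase Ib (493 ± 2.92) and starch synthase I (23.8 ± 0.107) stayed on top, Os01g0633100 (10.2 ± 0.0631) lay above Os05g0580000 (6.58 ± 0.394), and the latter overlapped starch synthase IV (6.06 ± 0.681).

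**Figure D3:**
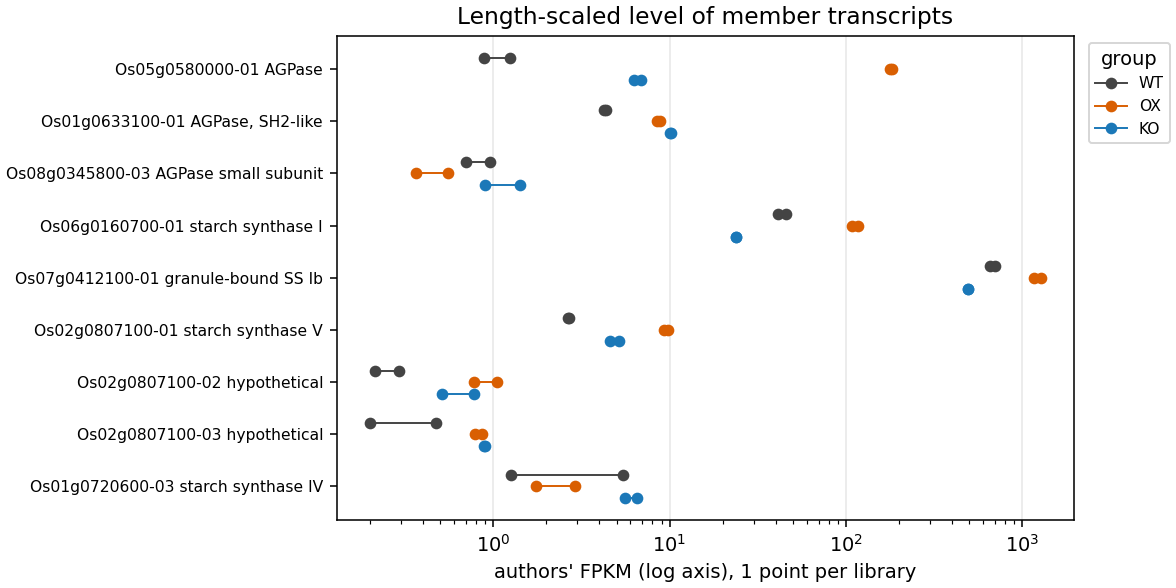
The authors' FPKM of each member transcript on a log axis, with 1 point per library and a line joining the 2 libraries of a group. Granule-bound starch synthase Ib was the highest member in every library, and Os05g0580000 spanned from 0.885 FPKM in WT to 183 FPKM in OX.

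The balance among the listed member transcripts of each enzyme group differed between genotypes. The FPKM ratio of Os05g0580000 to Os01g0633100 was 0.285 and 0.209 in the WT libraries, 21.5 and 20.1 in those of OX and 0.617 and 0.677 in those of KO. Of Os08g0345800 only transcript 03 was listed, so sums over the pyrophosphorylase members do not cover that gene in full. Os05g0580000 held 18.9% and 15.2% of the summed FPKM of the listed transcripts of the 3 member pyrophosphorylase genes in WT. This share was 95.4% and 94.97% in the OX libraries, against 36.2% and 37.2% in those of KO. With the transcripts of Os09g0298200, a gene outside the members that is described as similar to Brittle 2, added to the sum, the share was 11.9% and 10.1% in WT. It was then 67.4% and 67.2% in the OX libraries, with 30.7% and 31.5% in those of KO. The ratio of granule-bound starch synthase Ib to starch synthase I was 15.3 and 15.9 in the WT libraries, 10.9 and 10.8 in those of OX and 20.7 and 20.7 in those of KO. Starch synthase I thus gained on the granule-bound form in OX and lost on it in KO. Starch synthase V transcript 01 did not share that loss: its mean was 2.66 FPKM in WT and 4.88 in KO. Granule-bound starch synthase Ib went from 676 to 493 FPKM. With 2 libraries against 2 an exact permutation test of any of these ratios cannot reach 0.05, and none was run. The share of all member FPKM held by granule-bound starch synthase Ib was 92.5% and 92.2% in the WT libraries, 79.8% and 79.1% in those of OX and 90.1% and 90.1% in those of KO.

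The 5 transcripts outside the members whose pattern over the 6 libraries lay nearest to Os05g0580000, by Euclidean distance of centred log2(CPM + 1), were a sesquiterpene synthase, Os08g0167800 (distance 0.50), a transferase family gene, Os12g0458100 (1.40), the hypothetical Os06g0230000 (1.97), the lipoxygenase Os12g0559200 (1.98) and the di-copper centre gene Os01g0793300 (2.30). The nearest, Os08g0167800, had 11.5 and 11.9 CPM in the WT libraries, 1089 and 1041 in those of OX and 40.4 and 40.7 in those of KO. None of the 5 is described as a starch enzyme.

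Other listed genes of starch synthesis were counted for context, matched by description. Of 17 transcripts, 13 rose and 1 fell in OX against WT, with a median log2 fold change of 2.19 against 0.28 over all tested transcripts. Over all tested transcripts, 25.0% were called higher and 19.0% lower in OX, and 25.0% and 11.0% in KO. These shares also stand beside the lists below. Several of the 17 are transcripts of the same gene, as for Os06g0726400 and Os09g0298200, so they are not separate genes. The largest rises were those of transcript 01 of Os09g0298200 and of 2 glucose-6-phosphate/phosphate translocators, carriers that bring glucose-6-phosphate into plastids. Os09g0298200 is described as similar to Brittle 2, in maize a small subunit of ADP-glucose pyrophosphorylase. Its transcript 01 had a mean of 6.25 ± 0.404 CPM across WT, 119 ± 9.94 across OX and 5.49 ± 0.662 across KO (OX against WT 4.25, SE 0.13, edgeR adjusted p = 8.24e-05, KO against WT -0.19, SE 0.12, adjusted p = 0.928). Its transcript 02 also rose in OX (3.73, SE 0.73, adjusted p = 0.0389). The translocators Os07g0523400 (4.09, SE 0.14, adjusted p = 9.19e-05) and Os07g0523600 (3.95, SE 0.13, adjusted p = 9.45e-05) lie close together on chromosome 7. Another translocator beside them, Os07g0523965 (3.94, SE 0.13), is 1076 bases long, as is Os07g0523600. In the OX libraries it had 2366 and 2424 reads, against 2314 and 2349 for Os07g0523600, and reads of near-identical copies may be shared. The 1 fall was the isoamylase domain gene Os03g0686900 (-1.08).

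In KO against WT the same list gave 4 higher and 1 lower with a median of 0.02, but 1 higher and 7 lower with DESeq2 size factors or TMM, and 0 to 3 higher and 0 lower when any 1 library was left out. No direction for the list in KO can be given. The starch breakdown list, which also caught 2 genes with an amylase inhibitor domain, gave 6 higher and 1 lower of 10 in OX (2 lower without WT 1) and 4 higher and 0 lower in KO (1 higher and 2 lower with DESeq2 size factors, 2 higher without WT 2 or KO 1, 1 without KO 2, 1 lower without WT 1). Of the 4 that rose in KO, 2 were the inhibitor domain genes, Os03g0251000 (0.85) and Os07g0290200 (1.18), which are not breakdown enzymes, and 2 were beta-amylases, Os03g0141200 (1.52) and Os10g0465700 (0.50). Its largest called changes in OX were those of the inhibitor domain gene Os03g0251000 (-4.31, SE 0.18, edgeR adjusted p = 0.000160), the beta-amylase Os07g0543300 (3.12, SE 0.45, adjusted p = 0.00990) and the alpha-glucosidase Os06g0675700 (1.69, SE 0.16, adjusted p = 0.00195).

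In the sucrose list, 3 of 22 were higher and 9 lower in OX (6 and 4 with plain library totals, 5 lower without OX 1), and 9 were higher and 3 lower in KO (5 higher without KO 1 or KO 2). The sucrose list also caught a phosphofructokinase family gene, Os10g0405600, by part of a word. It is among those called higher in OX (0.87, SE 0.12, edgeR adjusted p = 0.00839) and in KO (1.19, SE 0.12, adjusted p = 0.00304). Sucrose synthase 2, Os03g0401300, which cleaves sucrose, rose in OX (3.19, SE 0.16, edgeR adjusted p = 0.000250), whereas a trehalose-6-phosphate synthase, Os08g0414700 (-1.84, SE 0.41, adjusted p = 0.0468), and a sucrose transporter, transcript 01 of Os03g0170900 (-1.45, SE 0.12, adjusted p = 0.00108), fell. The authors' pathway table puts 40 listed transcripts other than the members under starch and sucrose metabolism, and 17 of them are also in the starch synthesis, starch breakdown or sucrose list. Of the 40, 21 were higher and 10 lower in OX (5 lower with plain library totals, 6 without OX 1 or OX 2). In KO the numbers were 12 and 3 (8 and 11 with DESeq2 size factors or TMM, 7 and 1 without KO 1 or KO 2, 1 lower without any other library).

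**Figure D4:**
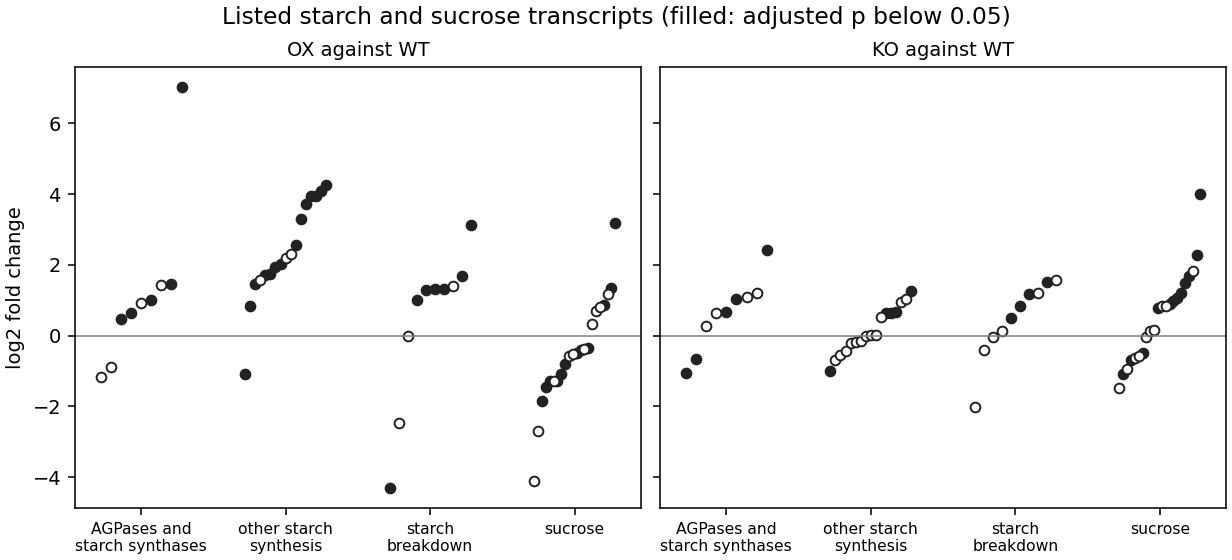
Log2 fold change in OX against WT (left) and KO against WT (right) of the 9 member transcripts, 17 other starch synthesis transcripts, 10 starch breakdown transcripts and 22 sucrose transcripts, ordered by value within each list. Filled points have an edgeR adjusted p below 0.05, and in OX 13 of the 17 other starch synthesis transcripts are filled and above 0.

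Lists of markers of leaf and of other cell states were summed and counted as well. Over all tested transcripts, 25.0% were called higher and 19.0% lower in OX against WT, and 25.0% and 11.0% in KO against WT. The 37 listed light-harvesting, photosystem and other chloroplast transcripts summed to 91230 and 98200 CPM in the WT libraries, 37060 and 40080 in those of OX and 60740 and 60120 in those of KO, with 31 lower in OX and 27 lower in KO. Seed and endosperm descriptions matched 10 transcripts, summing to 74.0 to 77.3 CPM in WT, 133 to 136 in OX and 114 to 123 in KO. A vacuolar processing enzyme described under glutelin maturation, Os04g0537900, named after its values were seen, accounted for 40.8 CPM of the sum in WT, 108 in OX and 49.7 in KO on average. Without it the sum was 32.4 and 37.2 CPM in the WT libraries, 25.2 and 27.5 in those of OX and 65.0 and 72.3 in those of KO, so that OX lay below WT. That list also caught immunoglobulin-domain descriptions by part of a word, and it shares the inhibitor domain genes with the starch breakdown list. Its glutelin genes, which encode seed storage proteins, had mean levels of 1.87 (Os03g0188500) and 0.600 CPM (Os12g0472500) in WT. In OX the means were 2.91 and 0.186, and neither change was called, while Os03g0188500 rose in KO to 16.0 CPM (log2 fold change 3.10, SE 0.42, edgeR adjusted p = 0.00938). Os12g0472500 stood at 0.356 CPM in KO (-0.75, SE 0.57, adjusted p = 1). Of these 10, 2 rose and 3 fell in OX, and 5 rose and 1 fell in KO. The 94 dividing-cell transcripts summed to 1795 and 1918 CPM in the WT libraries, 1148 and 1165 in those of OX and 1031 and 1032 in those of KO. By number, 12 of them rose and 16 fell in OX, both below the shares over all tested transcripts. In KO, 21 rose and 13 fell, and the median log2 fold change was 0.13. The 9 senescence transcripts reached 352 and 518 CPM in the WT libraries, 309 and 480 in those of OX and 675 and 1153 in those of KO, so that WT and OX overlapped. Of the 9, 3 were higher and 4 lower in OX, and 3 were higher and 1 lower in KO. Every deposited count is at least 1, but the counts are rounded up and the table is a selection. Whether a marker is absent therefore cannot be judged from them. The part of these differences in the levels of the starch genes was not tested, and in bulk leaf RNA fewer cells of a type and less RNA per cell cannot be told apart.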

How the data were processed

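Per the labels' protocols, a TruSeq Stranded kit was used on leaf RNA, and IRGSP-1.0 is the build per the submitters' processing notes. For the aligner, the counter, its strand setting and the authors' test, nothing is stated: not given in the sources used here. The authors deposited estimated counts per transcript, whole numbers that equal their FPKM turned back into reads and rounded up in 99.8% of values (tolerance 0.02 below and 1.02 above). The authors' deposited FPKM is scaled to transcript length and library total. Effective library totals were recovered from the authors' deposited log2 normalised values. The authors' deposited p-values and signed folds were used only where named. For this work edgeR 4.0.16 (R 4.3.3) tested the counts by its robust quasi-likelihood method across all transcripts, in 1 fit of 6 libraries with group as the only term and effective totals as library sizes; the low-count filter filterByExpr left 7034 and took out 160. P-values were Benjamini-Hochberg adjusted over the 27384 transcripts that the authors tested, a number recovered from their p-values. SE is the log2 fold change divided by the square root of F. DESeq2 1.42.0 was an alternative. The edgeR procedure was also run on simulated counts that gave every transcript the same dispersion, unlike these data, and no statement here rests on that run. Replicate libraries were not duplicates of each other: chi-square per degree of freedom between them was 14.5 to 20.3. Members, lists, alternatives and the rule for named genes (all member transcripts, the 5 nearest patterns, at most 3 called transcripts per pathway list and any called starch synthase or pyrophosphorylase outside the members) were chosen with earlier results of these data known. Root, pollen and secondary wall marker lists held 3, 6 and 3 transcripts, of which 0, 3 and 0 rose and 2, 0 and 0 fell in OX against WT. The shares over all tested transcripts were 25.0% and 19.0%.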

Additional observations from a re-analysis of the deposited data

How the results depend on the processing

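Other scalings shift every log2 fold change by a constant: relative to the effective totals, DESeq2 size factors by -0.172 in OX against WT and -0.492 in KO against WT, TMM on listed transcripts by -0.023 and -0.399, and plain library totals by 0.37 and 0.195. The number of members lower in OX than in KO was 0, but 1 with the DESeq2 Wald test, 1 with counts summed per gene and 2 when p-values were adjusted over the listed transcripts; leaving out any 1 library gave 0. The other 5 member counts stayed within 1.5 times of their values in every alternative run. Signs turned for uncalled members only: starch synthase IV (over leave-one-out fits -1.60 to 0.53 in OX against WT and -0.05 to 2.07 in KO against WT), Os08g0345800 in KO against WT (-0.23 with DESeq2 size factors, -0.14 with TMM, -0.11 without KO 2, -0.11 to 0.55 over leave-one-out fits) and transcript 03 of Os02g0807100 in OX against KO (0.03 with DESeq2 size factors, 0.09 with TMM). The cause was not tested. With the replicate number as a block, the counts of members called were 5 and 0 in OX against WT, 3 and 2 in KO against WT and 4 and 0 in OX against KO, and no member's call changed. In the starch synthesis list, the block gave 2 higher in KO against WT in place of 4. Same-numbered libraries share only a number, with deviations from the group means correlating at 0.077, 0.023 and 0.016. Depth limits the statements on Os08g0345800 and on transcripts 02 and 03 of Os02g0807100, with at most 58 reads in a library.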

Other observations

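A transcription factor whose description names starch biosynthesis was also listed. It was chosen after its values were seen. Os05g0121600 (chromosome 5, 1156300 to 1159703), of the AP2/EREBP family, had 370.6 and 366.5 CPM in the WT libraries. The OX libraries had 165 and 168 CPM and the KO libraries 283 and 281. WT was highest and OX lowest, without overlap between genotypes. It fell 2.21-fold from WT to OX (-1.15 on the log2 scale, SE 0.04, edgeR adjusted p = 9.83e-05), 1.31-fold in KO against WT (-0.39, SE 0.04, adjusted p = 0.00294), and stood 1.69-fold lower in OX than in KO (-0.76, SE 0.04, adjusted p = 0.000326). Whether it bears on the starch genes was not tested.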
